A study of Homo sapiens with 46 samples.

Results

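The SLC25 family, the mitochondrial carriers, was examined across 4 subcellular fractions of human pluripotent stem cells and of 3 germ layer derivatives. Members were all genes whose name in the deposited count tables is SLC25A followed by a number, with the rows of an Ensembl gene summed. There were 43 members of 21166 Ensembl genes listed in any of the 4 tables, and 32 members were listed in all 4. By cell type, 39 members were in the hPSC table, 40 in ectoderm, 40 in endoderm and 36 in mesoderm. Of 48 family symbols, 5 were in no table: SLC25A2, SLC25A31 (the testis ADP/ATP carrier), SLC25A41, SLC25A47 and SLC25A52.

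SLC25 proteins sit mostly in the inner mitochondrial membrane and exchange nucleotides, phosphate, carboxylates, amino acids, cofactors and metal ions between the cytosol and the matrix. They are encoded in the nucleus, translated in the cytosol and brought into the membrane by small TIM chaperones and the TIM22 complex. Pluripotent cells are known for a high rate of glycolysis, and the use of mitochondria changes as they differentiate.

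The 46 libraries came from H1, an established human embryonic stem cell line (hPSC in the labels), and from cells made from it in culture. The hPSC were kept in mTeSR1 on Matrigel. Endoderm cells were grown in RPMI with FBS, WNT3A and Activin A at 100 ng/ml. Mesoderm cells were grown in DMEM/F12 with FBS, VEGF, BMP4 and bFGF, and Activin A at 100 ng/ml was present for the first 24 h only. Ectoderm cells were grown in DMEM/F12 with KOSR, A83-01, PNU-74654 and Dorsomorphin and were collected after 5 days. Each cell type was lysed into cytoplasm and a nuclear pellet. A portion of the pellet gave the nucleus libraries, and the rest was split into nucleoplasm (the soluble part) and chromatin. All lysis buffers held α-amanitin, an inhibitor of RNA polymerase II. The series text speaks of actinomycin D, but no label of these libraries names it. There were 3 libraries in each of the groups except mesoderm nucleoplasm, which had 1. Nothing in the labels says that replicates were separate cultures, so p-values measure only the spread between these libraries. All cells derive from a single line.

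Depth was 4990408 to 21298678 counts per library. Of the marker genes, all 7 pluripotency markers listed were in the hPSC table, 5 of 6 ectoderm markers were in the ectoderm table (SOX1 was not), all 6 endoderm markers were in the endoderm table, and 5 of 7 mesoderm markers were in the mesoderm table (MESP1 and KDR were not). POU5F1, the core pluripotency factor, stood at 2540 TPM in hPSC cytoplasm and at 6.35, 1660 and 890 TPM in that of ectoderm, endoderm and mesoderm. NANOG, DPPA4, TDGF1 and DNMT3B were also highest in hPSC cytoplasm. Not so LIN28A, at 527, 558, 652 and 455 TPM in the same order, nor SOX2, at 80.6 TPM in hPSC and 207 in ectoderm. The endoderm and mesoderm tables do not list SOX2. TBXT, a defining mesoderm marker, stood at 0.0767 TPM in mesoderm cytoplasm and at 2.64 in that of endoderm. HAND1, another listed mesoderm marker, stood at 102 and 43.1 TPM in the same order. TBX6, also a listed mesoderm marker, stood at 2.85 TPM in mesoderm cytoplasm and at 4.13 in that of hPSC. Several fraction controls went against the labels in some cell types, so fractions are named below as they are labelled. MALAT1, a nuclear retained RNA, had log2 differences of 1.45 (hPSC) and 3.09 (ectoderm) between cytoplasm and nucleus. In endoderm and mesoderm MALAT1 gave -0.63 and -0.77, the direction of the labels, with neither value called. Between chromatin and nucleoplasm it gave -2.82 to -1.55 in the 3 cell types tested. Mitochondrial genes took 0.399% to 0.615% of counts in hPSC cytoplasm against 13.1% to 15.3% in hPSC nucleus, with the same order in ectoderm and endoderm, while mesoderm had 5.83% to 7.46% in cytoplasm and 1.11% to 1.36% in nucleus. The part of these differences in the results below was not tested.

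A few carriers held most of the family's RNA. TPM, the authors' length-corrected shares of a library, was used to compare genes with each other. With its X and Y copies summed, SLC25A6 had 852 ± 77.9 TPM (SD, n = 3) in hPSC cytoplasm. Ectoderm held 682 ± 103, endoderm 995 ± 93.6 and mesoderm 1070 ± 51.9 TPM. It is 1 of the 3 ADP/ATP carriers expressed here, which exchange matrix ATP for cytosolic ADP. SLC25A6 lies in the pseudoautosomal region, and the tables list an X and a Y copy with exactly equal counts. The copies were summed, so its level may be overstated by up to a factor of 2, while its fold changes are not touched. SLC25A5, the ADP/ATP carrier of dividing cells, had means of 432, 270, 491 and 365 TPM in the same order, and SLC25A3, the carrier of phosphate and copper, 287, 432, 363 and 581 TPM. The order of the 3 depends on the copies. Summed, SLC25A6 was the highest member in the cytoplasm of all 4 cell types. With 1 copy counted it came to 426, 341, 498 and 533 TPM, first in endoderm alone and second in the others, behind SLC25A5 in hPSC and SLC25A3 in ectoderm and mesoderm. Together SLC25A3, SLC25A5 and SLC25A6 made 64.7% to 70.8% of the summed family TPM in cytoplasm, as group means, and 27.0% to 49.2% in chromatin, or 57.3% to 64.1% and 21.7% to 41.8% with 1 copy.

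**Figure D1:**
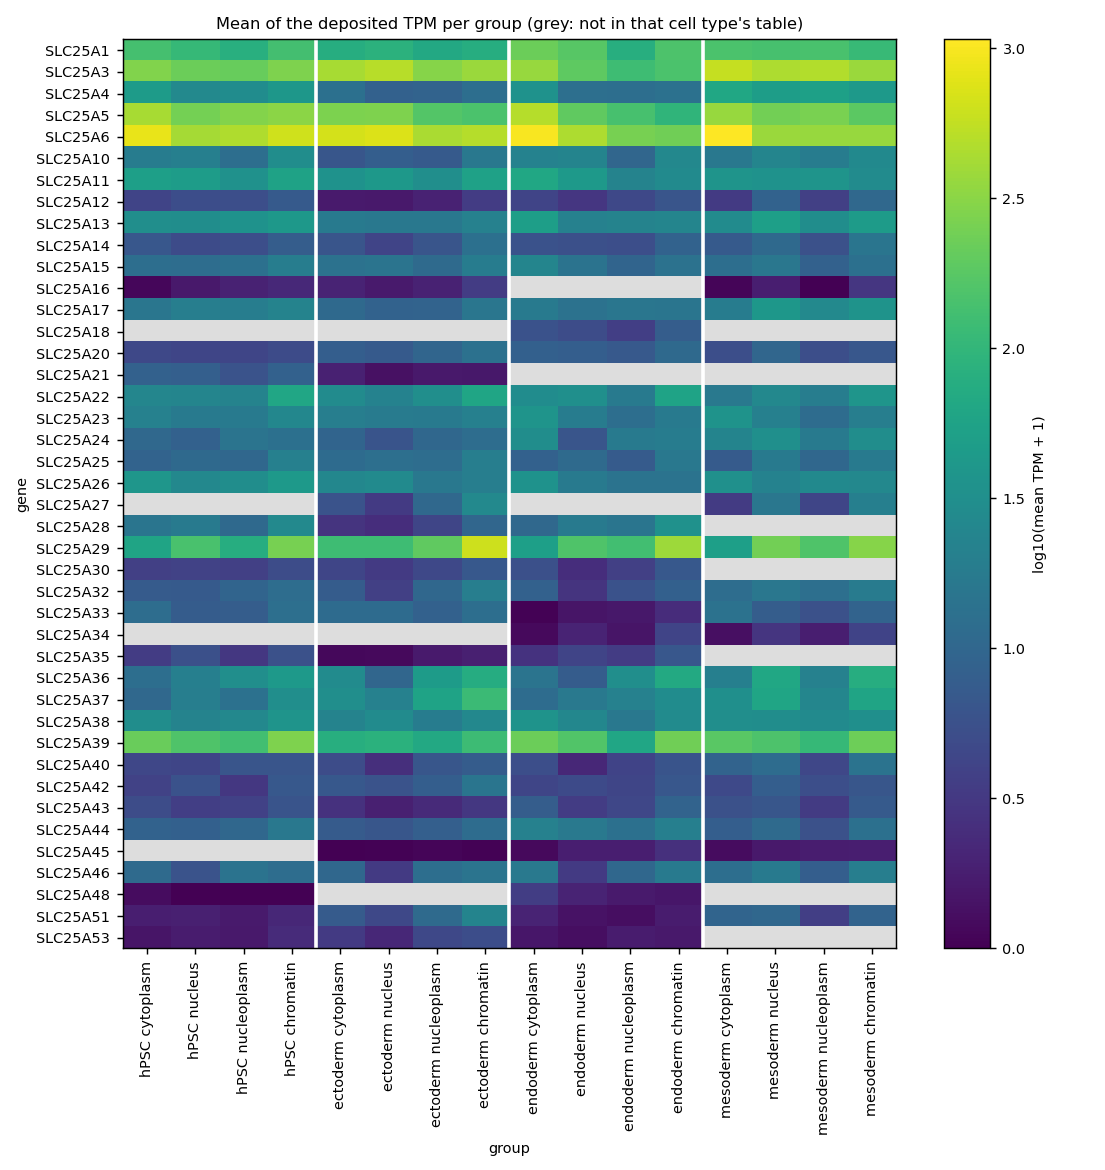
Mean TPM of the members (lines of the map) in each of the 16 groups (columns), coloured by log10 of mean TPM plus 1, with grey where a cell type's table does not list the gene; n = 3 libraries per group, and 1 in mesoderm nucleoplasm. SLC25A6 is drawn with its X and Y copies summed and is then the highest member in cytoplasm of all 4 cell types (with 1 copy, in endoderm alone); SLC25A29 was the highest in chromatin of ectoderm (627 TPM) and endoderm (384 TPM) either way.

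The order differed in chromatin. SLC25A29, a carrier of basic amino acids at chr14:100291111-100306547, had a mean of 627 TPM in ectoderm chromatin and 384 in endoderm chromatin, where it was the highest member, against 122 and 50.7 TPM in the cytoplasm of the same cells. In hPSC it had 252 TPM in chromatin and 58.6 in cytoplasm, and in mesoderm 300 and 49.7 TPM. SLC25A4, the ADP/ATP carrier of heart and muscle, was lower than its paralogs, with 44.5 TPM in hPSC cytoplasm, 12.3 in ectoderm, 34.3 in endoderm and 62.0 in mesoderm. At the other end of the family, SLC25A12, 1 of the 2 aspartate/glutamate carriers, had 3.23, 0.637, 3.19 and 2.24 TPM in the same order, while the other, SLC25A13, had 30.7, 16.3, 48.6 and 28 TPM. SLC25A45 and SLC25A34 stayed under 1 TPM in cytoplasm in each table that lists them.

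The 3 ADP/ATP carriers are close paralogs whose levels differ widely, so the 250 bases before the RefSeq start of each are printed. They are from RefSeq (GRCh38.p14), and capitals mark TATAA (the TATA box), CCAAT and GGGCGG (the GC box), each searched on both strands. The windows are chr4:185143016-185143265 on the plus strand, chrX:119468194-119468443 on the plus strand and chrX:1392114-1392363 on the minus strand. The GENCODE release 29 genes start farther upstream, at 185143241, 119468400 and 1392724. By those starts the SLC25A4 and SLC25A5 windows run into the gene and the SLC25A6 window lies wholly inside it. Positions below are relative to the RefSeq starts.
SLC25A4: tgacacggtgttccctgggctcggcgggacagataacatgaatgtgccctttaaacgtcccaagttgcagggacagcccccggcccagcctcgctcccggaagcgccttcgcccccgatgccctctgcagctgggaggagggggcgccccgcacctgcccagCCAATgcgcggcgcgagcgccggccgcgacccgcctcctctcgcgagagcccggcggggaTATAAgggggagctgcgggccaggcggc
SLC25A5: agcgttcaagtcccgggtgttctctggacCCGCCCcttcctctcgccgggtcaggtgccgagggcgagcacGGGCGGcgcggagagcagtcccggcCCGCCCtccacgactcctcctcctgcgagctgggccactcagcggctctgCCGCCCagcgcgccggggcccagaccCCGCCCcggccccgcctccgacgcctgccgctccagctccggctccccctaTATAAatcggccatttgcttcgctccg
SLC25A6: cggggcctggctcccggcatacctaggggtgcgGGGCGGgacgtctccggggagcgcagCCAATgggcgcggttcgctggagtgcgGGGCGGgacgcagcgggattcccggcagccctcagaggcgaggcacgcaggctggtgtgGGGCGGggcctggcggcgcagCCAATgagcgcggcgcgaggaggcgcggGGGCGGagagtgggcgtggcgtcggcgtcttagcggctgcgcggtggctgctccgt
SLC25A4 held 1 TATAA at 28 to 24 bases before the start and 1 CCAAT, SLC25A5 1 TATAA at 27 to 23 bases and 5 GGGCGG, and SLC25A6 no TATAA, 2 CCAAT and 4 GGGCGG. Of 35116 windows of the same length, 18.9% held TATAA, 32.0% CCAAT and 42.6% GGGCGG. Their GC contents were 71.6%, 73.6% and 76.8%, against a median of 58.0% over all windows. These matches describe the letters only, and no binding was measured.

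Within each cell type, cytoplasm was compared with nucleus by edgeR's quasi-likelihood test, with Benjamini-Hochberg adjustment over all genes tested and a call at an adjusted p under 0.05. A positive log2 difference means higher in cytoplasm. Members were called about as often as other genes: 22 of 38 in hPSC (background 65.7% of all genes tested), 22 of 38 in ectoderm (53.5%), 25 of 40 in endoderm (69.9%) and 24 of 36 in mesoderm (63.4%). Of the members in the tables, SLC25A48 in hPSC and SLC25A35 and SLC25A45 in ectoderm did not pass the filter on low counts. The called members were mostly higher in cytoplasm in hPSC, 19 against 3, where 35.6% of all genes were called higher and 30.1% lower. They were 12 against 10 in ectoderm (28.8% and 24.8% of all genes), 16 against 9 in endoderm (34.4% and 35.6%) and 19 against 5 in mesoderm (32.1% and 31.2%). Libraries of the 2 fractions did not overlap for 27 members in hPSC (71.7% of all genes), 23 in ectoderm (57.8%), 26 in endoderm (71.0%) and 29 in mesoderm (77.0%). Without the ectoderm nucleus library that stood apart, replicate 2, ectoderm had 16 calls, 10 of them higher, and without endoderm nucleus replicate 1, endoderm had 29 calls, 20 of them higher. The medians over members, in the order hPSC, ectoderm, endoderm, mesoderm, were 0.46, -0.02, 0.21 and 0.61, beside 0.11, 0.03, 0.01 and 0 over all genes.

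These splits depended on how libraries were scaled. With total counts in place of TMM the median of all genes moved by 0.34 in ectoderm and 0.71 in endoderm, and the calls became 16 higher and 0 lower in ectoderm and 26 against 5 in endoderm. On the authors' TPM the medians moved by -0.37 in hPSC and -1.04 in mesoderm, and the calls became 11 against 7 in hPSC and 3 against 15 in mesoderm. Directions below are therefore relative to the TMM-scaled bulk of genes.

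**Figure D2:**
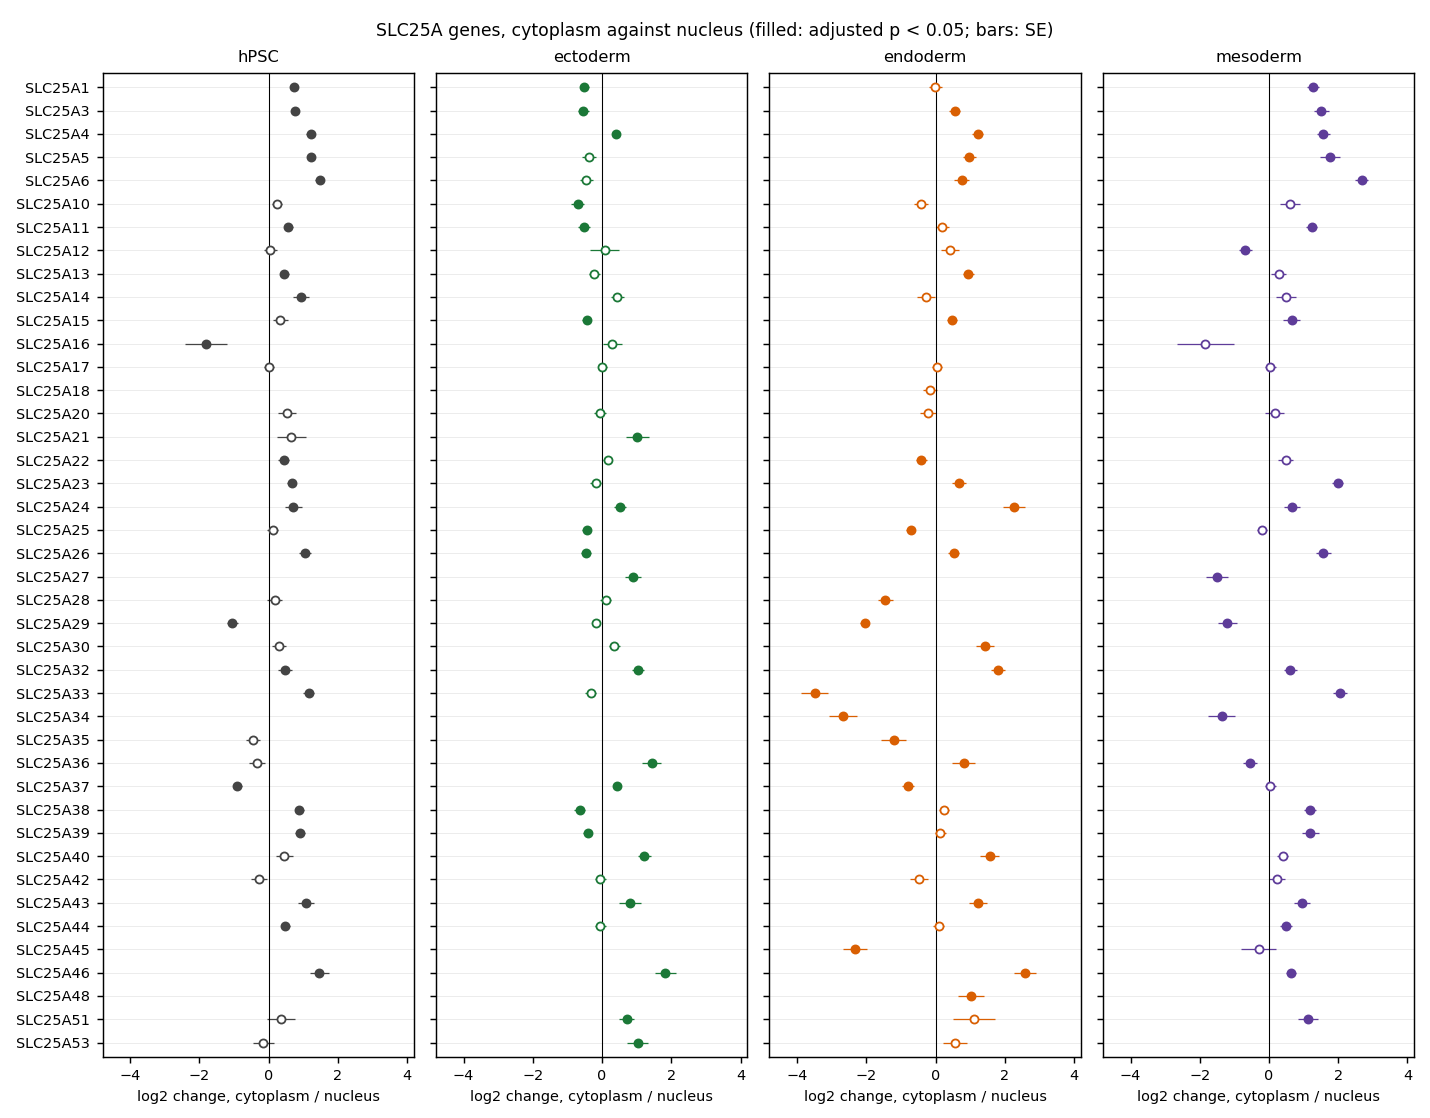
Log2 difference between cytoplasm and nucleus for members in each cell type, ordered by gene number, with standard errors from the fit and filled marks for members called at an adjusted p under 0.05. SLC25A46 lay above 0 in all 4 cell types (0.64 to 2.59) and SLC25A29 below 0 (-2.05 to -0.17); on the authors' TPM the mesoderm calls are 3 higher and 15 lower, and in ectoderm the lower calls are lost with total counts.

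Among adenine nucleotide and coenzyme A carriers, 5 of 9 tested members were higher in cytoplasm in hPSC and 1 lower, and in mesoderm 5 of 9 were higher and 0 lower. In ectoderm 2 of 9 were higher and 1 lower, and in endoderm 5 of 8 and 1. The shares of all genes called higher were 35.6% (hPSC), 28.8% (ectoderm), 34.4% (endoderm) and 32.1% (mesoderm). Those called lower were 30.1%, 24.8%, 35.6% and 31.2% in that order. Whether a role group departs from these shares, here or below, was not tested. SLC25A6 in hPSC had 1169, 1060 and 1003 CPM (TMM-scaled counts) in cytoplasm and 444.8, 320.2 and 400.6 in nucleus. Every cytoplasm library was above every nucleus library, and the log2 difference was 1.47 (SE 0.13, adjusted p 4.06e-07). In mesoderm SLC25A6 had 1146, 1312 and 1343 CPM against 186.8, 214.8 and 190.2, with no overlap and a difference of 2.68 (SE 0.19, adjusted p 1.09e-06). In endoderm the cytoplasm held 847.3, 795.8 and 949.0 CPM and the nucleus 747.2, 400.9 and 380.4, a difference of 0.76 (SE 0.22, adjusted p 0.00575). Nucleus replicate 1 stood well above the other two there. In ectoderm the order was not resolved: 633.6, 743.3 and 769.7 CPM in cytoplasm overlapped 747.1, 1391 and 822.4 in nucleus (-0.46, adjusted p 0.0568).

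SLC25A5 followed its paralog. In hPSC it had 508.9, 490.0 and 445.9 CPM in cytoplasm against 205.4, 184.7 and 223.9 in nucleus, with no overlap (1.23, SE 0.12, adjusted p 7.06e-07). In mesoderm it had 343.1, 402.0 and 400.1 CPM against 99.38, 131.8 and 105.2, also without overlap (1.77, SE 0.29, adjusted p 0.000297). It was 0.98 higher in endoderm (adjusted p 0.000174) and gave -0.38 in ectoderm (adjusted p 0.101), where nucleus replicate 2 at 457.3 CPM was far above the other libraries. SLC25A4 was higher in cytoplasm in all 4 cell types, with differences of 1.21 (hPSC), 0.39 (ectoderm), 1.22 (endoderm) and 1.57 (mesoderm). Its cytoplasm and nucleus libraries did not overlap in any of them, and on TPM the mesoderm difference fell to 0.39 and was no longer called, as was that of SLC25A5 at 0.61. SLC25A24, a calcium-regulated ATP-Mg/phosphate carrier, was also higher in all 4. In endoderm it had 82.33, 82.12 and 50.75 CPM in cytoplasm against 6.614, 15.99 and 21.76 in nucleus (2.26, SE 0.31, adjusted p 1.07e-05). Its relative SLC25A23 was 1.98 higher in mesoderm (adjusted p 1.74e-06), and SLC25A25, the other relative, was lower in endoderm cytoplasm (-0.72), a value that came to 0.01 with total counts.

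Of the phosphate, citrate and dicarboxylate carriers, 3 of 5 were higher in hPSC cytoplasm and 3 of 4 in mesoderm, with 0 lower in either. In ectoderm 1 of 5 was higher and 4 were lower, and in endoderm 1 of 4 was higher. The shares of all genes called higher were 35.6% (hPSC), 32.1% (mesoderm), 28.8% (ectoderm) and 34.4% (endoderm), and 24.8% were called lower in ectoderm. SLC25A3 in mesoderm had 598.4, 617.7 and 660.5 CPM in cytoplasm and 209.2, 240.1 and 207.5 in nucleus, with no overlap (1.51, SE 0.22, adjusted p 0.000128; 0.37 on TPM, not called). It was higher by 0.76 in hPSC and by 0.55 in endoderm. In ectoderm it was lower, with 629.9, 657.2 and 593.4 CPM against 759.6, 1226 and 749.0 (-0.54, SE 0.17, adjusted p 0.0141). The ectoderm groups did not overlap, and nucleus replicate 2 was again the highest library, without which the difference was -0.24. SLC25A1, the citrate carrier that exports citrate for lipid synthesis, was higher by 0.74 in hPSC and 1.26 in mesoderm and lower, at -0.51 in ectoderm. In endoderm it gave -0.01 (adjusted p 0.96), and 0.32 without nucleus replicate 1, which held 291.4 CPM beside 173.9 and 156.7. SLC25A10, the dicarboxylate carrier, and SLC25A11, the oxoglutarate/malate carrier, were lower in ectoderm cytoplasm by -0.70 and -0.53. None of these 4 ectoderm calls held with total counts or on TPM, and that of SLC25A11 was -0.25 and not called without nucleus replicate 2.

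The amino acid carriers were mixed, with 4 of 7 higher and 1 lower in hPSC, 0 and 2 of 7 in ectoderm, 2 and 2 of 8 in endoderm, and 3 and 2 of 7 in mesoderm. The same shares of all genes were 35.6% and 30.1%, 28.8% and 24.8%, 34.4% and 35.6%, and 32.1% and 31.2%. SLC25A29 was the member most often lower in cytoplasm. In endoderm it had 93.01, 96.76 and 109.4 CPM in cytoplasm and 382.2, 421.2 and 439.3 in nucleus, with no overlap (-2.05, SE 0.14, adjusted p 7.08e-09). In hPSC it had 179.8, 162.8 and 162.3 CPM against 329.4, 378.3 and 336.4 (-1.05, SE 0.16, adjusted p 5.18e-05). In mesoderm it had 159.7, 150.3 and 174.2 against 411.0, 322.8 and 377.8 (-1.20, SE 0.28, adjusted p 0.00282). The nucleus libraries were above all cytoplasm libraries in these 3 cell types. In ectoderm they overlapped, with 353.4, 392.2 and 374.0 CPM in cytoplasm and 442.8, 354.4 and 465.1 in nucleus (-0.17, adjusted p 0.236). SLC25A13, the liver-type aspartate/glutamate carrier also known as citrin, was 0.94 higher in endoderm cytoplasm (adjusted p 7.62e-05) and 0.45 higher in hPSC, the latter not called without any 1 of the 3 hPSC nucleus libraries. Its relative SLC25A12 was called in mesoderm alone, where it was lower in cytoplasm (-0.69, adjusted p 0.00808). SLC25A38, the glycine carrier needed for heme synthesis, was lower, at -0.64 in ectoderm cytoplasm, which was lost with total counts and on TPM.

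Of the carriers of cofactors, pyrimidines, acylcarnitine and glutathione, 4 of 9 were higher in hPSC cytoplasm, 4 in ectoderm, 4 in endoderm and 6 in mesoderm, and 0, 3, 1 and 1 were lower. Among all genes 35.6%, 28.8%, 34.4% and 32.1% were called higher and 30.1%, 24.8%, 35.6% and 31.2% lower. SLC25A36, a pyrimidine nucleotide carrier, had 189.4, 128.8 and 137.7 CPM in ectoderm cytoplasm against 71.40, 31.64 and 67.49 in nucleus, without overlap (1.43, SE 0.27, adjusted p 0.000727). In mesoderm it was lower in cytoplasm (-0.55, adjusted p 0.0351), a call made in 0 of the 6 fits that left out a library. SLC25A33, the other pyrimidine carrier, was higher in cytoplasm by 1.16 in hPSC and 2.05 in mesoderm. Its -3.49 in endoderm comes from an assembly that holds a single unlisted transcript of the gene at 0.1668 to 2.529 CPM. SLC25A32, the folate and FAD carrier, was higher in cytoplasm in all 4 cell types, with differences of 0.48 (hPSC), 1.04 (ectoderm), 1.80 (endoderm) and 0.62 (mesoderm). SLC25A40, a glutathione importer, was higher by 1.22 in ectoderm, and SLC25A26, the S-adenosylmethionine carrier, by 1.57 in mesoderm (0.60 on TPM, not called).

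SLC25A46, an outer membrane protein of mitochondrial dynamics, was higher in cytoplasm in all 4 cell types. In endoderm it had 27.49, 30.84 and 26.04 CPM in cytoplasm and 1.518, 7.054 and 5.211 in nucleus (2.59, SE 0.32, adjusted p 4.34e-06). In ectoderm it had 42.66, 31.93 and 37.48 CPM against 14.22, 5.735 and 12.24 (1.83, SE 0.30, adjusted p 0.00024). The 2 groups were apart in both, as they were in hPSC (1.46, adjusted p 0.000314) and mesoderm (0.64, adjusted p 0.00189). The uncoupling-protein-like members were mixed, with SLC25A27 (UCP4) 0.88 higher in ectoderm cytoplasm and SLC25A30 1.42 higher in endoderm. Both values rest on unlisted transcripts alone, 6 of SLC25A27 in the ectoderm table and 2 of SLC25A30 in the endoderm table. Over the 32 members tested in all 4 cell types, 5 were called higher in cytoplasm in each (SLC25A4, SLC25A24, SLC25A32, SLC25A43 and SLC25A46), 0 lower in each, 12 higher in at least 1 and lower in at least 1 other, and 3 in none (SLC25A17, SLC25A20 and SLC25A42). No such counts were made over all genes, so whether they are particular to the family was not tested. The lower calls of ectoderm, which enter these counts, came to 0 with total counts and 0 on TPM.

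The mitoferrins, which carry iron for heme and iron-sulfur clusters, went the other way in 2 cell types. SLC25A37, mitoferrin 1, had 47.08, 39.25 and 41.32 CPM in hPSC cytoplasm against 84.70, 79.09 and 73.75 in nucleus, with no overlap (-0.90, SE 0.14, adjusted p 6.49e-05). Endoderm showed the same order, with 13.68, 13.54 and 14.04 CPM against 18.76, 24.74 and 27.67 (-0.79, SE 0.17, adjusted p 0.000626; -0.11 with total counts, not called). In ectoderm it was higher in cytoplasm, with 140.9, 127.2 and 144.5 CPM against 92.73, 97.83 and 116.8 (0.42, SE 0.10, adjusted p 0.00365). In mesoderm the groups overlapped at 136.8 to 152.2 CPM in cytoplasm and 139.8 to 144.5 in nucleus (0.04, adjusted p 0.84). The ectoderm, endoderm and mesoderm tables hold 10, 4 and 8 transcripts of SLC25A37, none of them listed as protein coding. SLC25A28, mitoferrin 2, was lower in endoderm cytoplasm, with 8.300, 7.388 and 10.68 CPM against 15.07, 28.40 and 28.20 (-1.45, SE 0.22, adjusted p 3.74e-05; -0.65 on TPM, not called). In hPSC and ectoderm it gave 0.17 (adjusted p 0.528) and 0.10 (adjusted p 0.635), and it is not in the mesoderm table. The ectoderm table holds 1 transcript of it, unlisted.

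**Figure D3:**
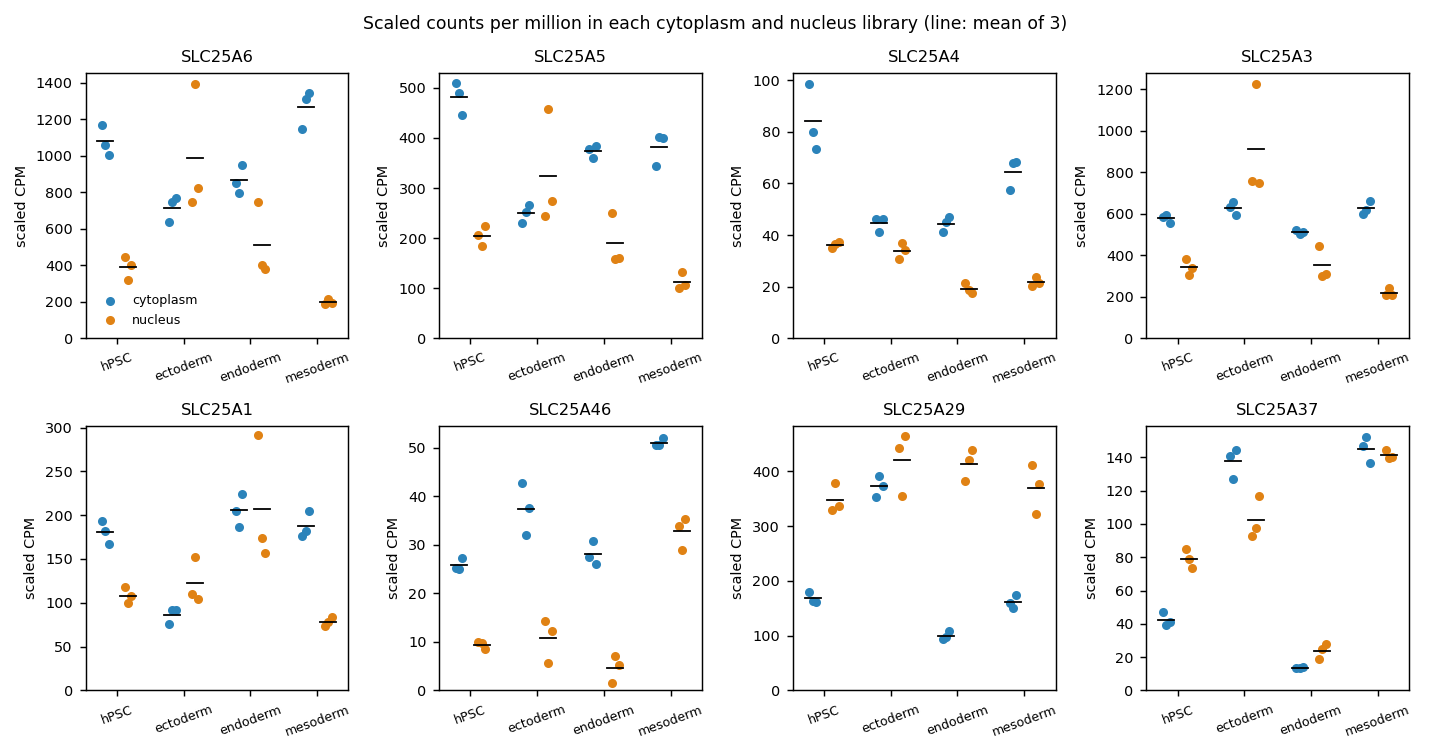
TMM-scaled CPM (linear axis from 0) of 8 members in every cytoplasm and nucleus library, 1 point per library, with a line at the mean of 3. SLC25A29 was lower in cytoplasm than in nucleus without overlap in hPSC, endoderm and mesoderm, and SLC25A6 in ectoderm overlapped between cytoplasm and nucleus.

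Genes of the machinery that imports these carriers were examined alongside. Of 13 genes of the import pathway (TOM receptors, small TIMs and TIM22), 11 were higher in cytoplasm and 0 lower in hPSC, 1 and 1 in ectoderm, 8 and 0 of 12 tested in endoderm, and 11 and 1 in mesoderm. Their medians were 1.24, -0.12, 0.70 and 1.34, beside 0.11, 0.03, 0.01 and 0 over all genes. Of 14 other mitochondrial transport genes (pyruvate carrier, VDAC, sideroflexins and calcium uniporter), 10 were higher in hPSC cytoplasm, 2 of 13 in ectoderm, 10 in endoderm and 9 in mesoderm. For both lists, the shares of all genes called higher were 35.6%, 28.8%, 34.4% and 32.1% in that order of cell types. Those called lower were 30.1%, 24.8%, 35.6% and 31.2%. Of 5 carrier-family genes without an SLC25A symbol, UCP2 gave 1.62 (hPSC), -0.22 (ectoderm), 1.03 (endoderm) and 2.44 (mesoderm), and MTCH2, an outer membrane insertase, 1.34, -0.26, 0.86 and 1.63, with the ectoderm values not called. RPLP0, a ribosomal protein mRNA listed as a cytoplasmic control, had differences of 1.56, -0.69, 0.79 and 3.20 in the same order. Its part in the order of the cell types was not tested.

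Chromatin was compared with nucleoplasm in 3 cell types, since mesoderm has a single nucleoplasm library. Fewer members were called than in the comparison of cytoplasm with nucleus: 11 of 38 in hPSC (background 30.7%), 9 of 38 in ectoderm (43.3%) and 16 of 40 in endoderm (53.7%). The splits were 8 higher in chromatin against 3 (17.2% and 13.6% of all genes), 6 against 3 (21.6% and 21.8%) and 9 against 7 (23.0% and 30.7%). The fractions did not overlap for 17, 27 and 23 members (53.3%, 61.2% and 68.6% of all genes). With total counts they were 9 against 0, 13 against 2 and 25 against 1, with medians of all genes moved by 0.16, 0.19 and 0.62, and on TPM 24 against 0, 20 against 0 and 24 against 1. Over the 35 members tested in all 3, SLC25A10, SLC25A28 and SLC25A29 were called higher in chromatin in each, SLC25A5 lower in each, 0 in both directions, and 15 in none. The same was not counted over all genes.

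SLC25A29 in ectoderm had 1109, 1019 and 1128 CPM in chromatin and 531.4, 491.8 and 550.5 in nucleoplasm (1.05, SE 0.12, adjusted p 2.46e-05). In hPSC it had 382.5, 373.0 and 582.7 CPM against 212.6, 223.4 and 204.3 (1.06, SE 0.16, adjusted p 0.000481). In endoderm it had 581.8, 593.2 and 629.2 against 360.1, 334.4 and 361.1 (0.77, SE 0.13, adjusted p 0.000171). Chromatin was above nucleoplasm in every library of these cell types, and hPSC chromatin replicate 3 was the highest of its group. SLC25A10 gave 0.78 (hPSC), 0.61 (ectoderm) and 0.88 (endoderm). SLC25A28 was higher by 0.78, 0.73 and 0.59, and SLC25A37 by 0.60 in hPSC and 0.37 in ectoderm, with -0.12 in endoderm (adjusted p 0.556). SLC25A22, a glutamate carrier, was higher by 0.90 in hPSC and 1.16 in endoderm. SLC25A39, a glutathione importer, was higher by 1.30 in endoderm, with 171.3, 167.6 and 173.3 CPM against 66.42, 67.53 and 73.73. SLC25A18, the second glutamate carrier, listed in the endoderm table only, was higher by 0.77 there, and SLC25A27 by 0.77 in ectoderm. These 2 values, and that of SLC25A28 in ectoderm, rest on unlisted transcripts alone. Several of these calls rested on few libraries: leaving out 1 library kept the call of SLC25A28 in 2 of 6 fits in hPSC and 1 of 6 in endoderm, of SLC25A37 in 2 of 6 in ectoderm, and of SLC25A10 and SLC25A27 in 3 of 6 in ectoderm.

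Of the ADP/ATP carriers, SLC25A5 was lower in chromatin in the 3 cell types and the others in some. SLC25A5 had 57.18, 59.35 and 43.97 CPM in endoderm chromatin and 116.4, 123.8 and 126.5 in nucleoplasm, with no overlap (-1.19, SE 0.18, adjusted p 5.75e-05). In ectoderm it had 69.92, 56.29 and 69.23 CPM against 117.3, 126.6 and 117.1 (-0.88, SE 0.19, adjusted p 0.00238; -0.22 on TPM, not called). In hPSC it had 189.4, 204.2 and 171.5 against 270.3, 247.7 and 269.6 (-0.48, SE 0.11, adjusted p 0.00745), a call lost with total counts and turned to 0.11 on TPM. SLC25A6 was lower, at -0.54 in ectoderm, in 3 of 6 fits without a library, and by -0.75 in endoderm, with -0.13 in hPSC (adjusted p 0.48). On TPM its hPSC and ectoderm values turned to 0.46 and 0.13. SLC25A4 was lower, at -0.53 in endoderm, a call lost without endoderm nucleoplasm replicate 2 or chromatin replicate 3, and SLC25A13, SLC25A17 and SLC25A26 by -0.60, -0.65 and -0.80. With total counts the endoderm value of SLC25A5 was -0.58 and still called, while SLC25A4, SLC25A13 and SLC25A6 came to 0.09, 0.02 and -0.13 and, with SLC25A17 and SLC25A26, were not called. SLC25A1 was lower, at -0.48 in ectoderm. In hPSC, SLC25A24 and SLC25A46 were lower, at -0.71 and -0.83, with chromatin replicate 3 at 12.38 and 7.354 CPM far below the other two, and both calls were lost with total counts and without hPSC nucleoplasm replicate 2 or 3. Of the other members followed throughout, SLC25A3 gave -0.16, -0.25 and -0.20 in the 3 cell types and SLC25A12 -0.06, 0.69 and -0.07, none of them called. In the single mesoderm nucleoplasm library SLC25A3 led with 483 TPM, SLC25A6 had 364 and SLC25A29 had 154, against mesoderm chromatin means of 370, 368 and 300 TPM.

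Cell types were then compared with hPSC within cytoplasm and within chromatin, for the 32 members in all 4 tables. The 3 comparisons of a fraction share the hPSC libraries. In bulk RNA, fewer cells of a type and less RNA per cell cannot be told apart. Each cell type has its own transcript assembly, so the transcripts that make up a gene change together with the cell type, and the 2 cannot be told apart by the gene sums. Of the 32 members, 26 have a transcript shared by all 4 tables. The other 6 (SLC25A14, SLC25A33, SLC25A37, SLC25A40, SLC25A42 and SLC25A51) have none. An alternative with shared transcripts alone, chosen after seeing the data, is given beside the results it changes.

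In cytoplasm 27 of 32 members were called in ectoderm (background 76.0%), 19 of 32 in endoderm (58.1%) and 21 of 32 in mesoderm (68.1%). In ectoderm 8 were higher than in hPSC and 19 lower, where 38.0% of all genes were called higher and 37.9% lower. In endoderm the split was 9 against 10 (29.5% and 28.6%) and in mesoderm 8 against 13 (34.6% and 33.4%). The libraries did not overlap those of hPSC for 26, 19 and 22 members (76.1%, 60.9% and 70.8% of all genes). Median differences of the members were -0.59, -0.04 and -0.09, beside 0.01, 0 and 0 over all genes. On TPM the splits were 7 against 13, 9 against 1 and 9 against 4. Of 12 import pathway genes tested, 10, 7 and 7 were lower than in hPSC and 1, 1 and 1 higher.

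**Figure D4:**
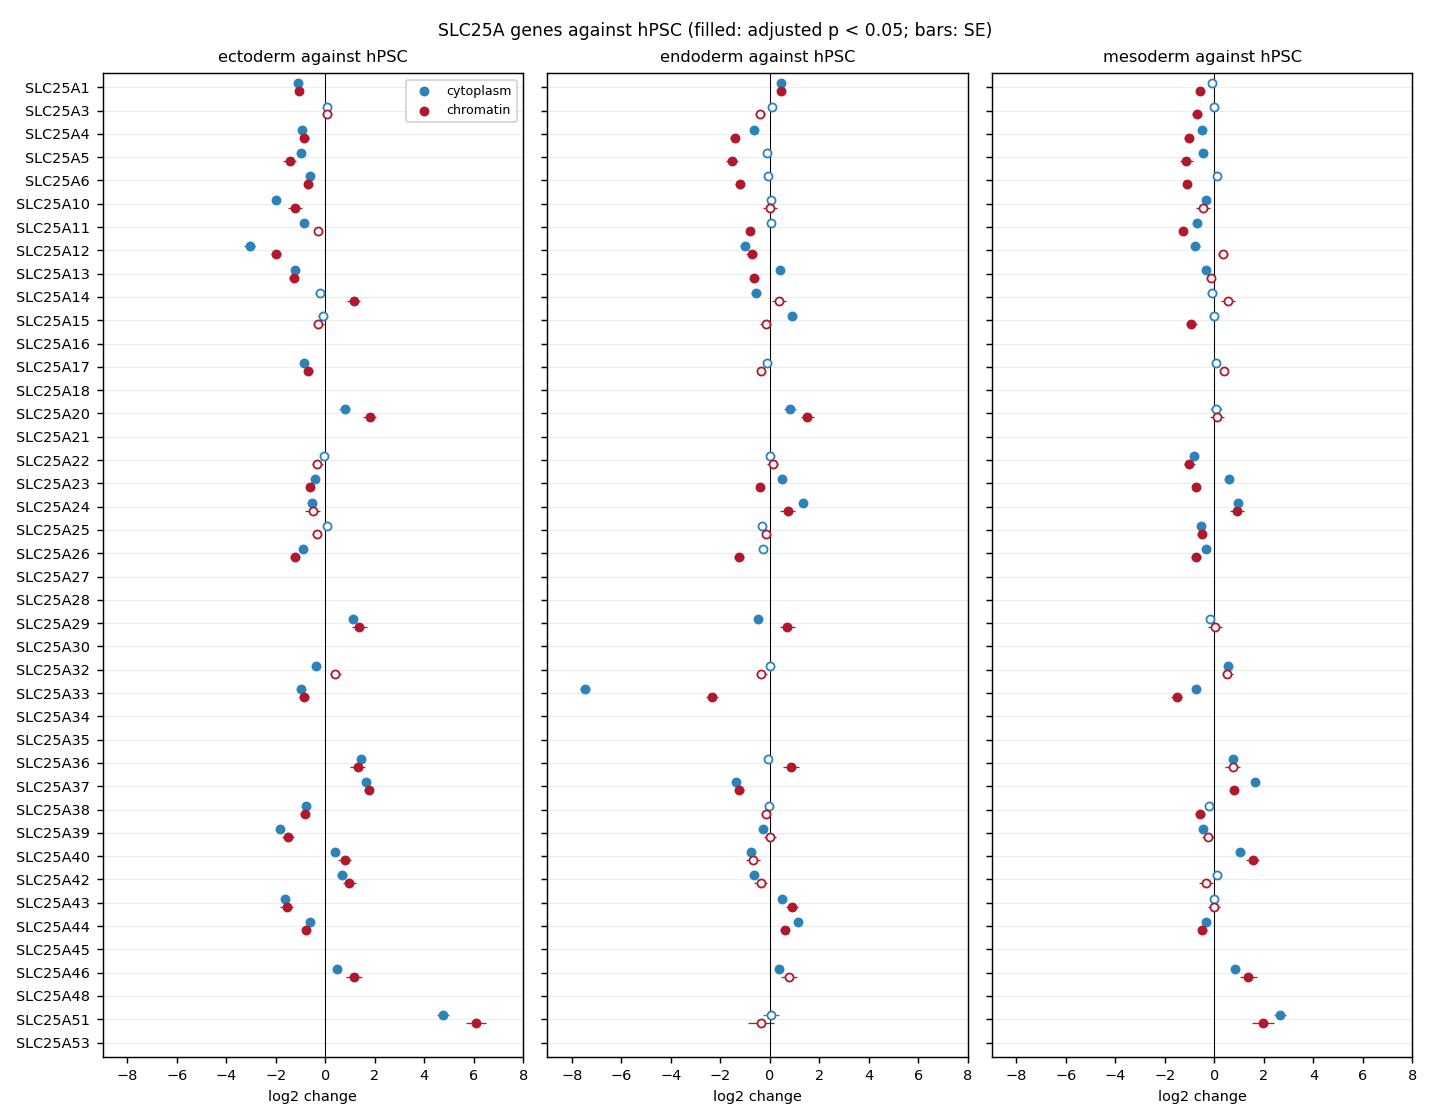
Log2 difference from hPSC for the members in cytoplasm and in chromatin of ectoderm, endoderm and mesoderm, with standard errors and filled marks for calls at an adjusted p under 0.05. In ectoderm cytoplasm 19 members were called lower and 8 higher (37.9% and 38.0% of all genes). The points farthest from 0, SLC25A33 in endoderm and SLC25A51 in ectoderm, are members with no transcript shared by the 4 tables.

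Ectoderm cytoplasm had less RNA of all 3 ADP/ATP carriers. SLC25A5 had 248.5, 271.4 and 280.1 CPM in ectoderm and 546.1, 546.1 and 500.0 in hPSC (-0.99, SE 0.10, adjusted p 2.69e-07). SLC25A6 had 682.9, 801.9 and 810.1 CPM against 1254, 1182 and 1125 (-0.63, SE 0.12, adjusted p 0.000184). SLC25A4 had 49.73, 44.56 and 48.79 against 105.9, 89.13 and 82.47 (-0.95, SE 0.11, adjusted p 1.71e-06). No ectoderm library reached the lowest hPSC library for any of them. The call of SLC25A6 was lost on TPM (-0.33) and held with shared transcripts (-0.36). In mesoderm SLC25A5 and SLC25A4 were lower, at -0.47 and -0.51, both lost on TPM, where SLC25A4 came to 0.47, and SLC25A6 gave 0.10 (adjusted p 0.452). In endoderm SLC25A4 was lower, at -0.65, while SLC25A5 and SLC25A6 overlapped with hPSC at -0.10 and -0.06.

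The aspartate/glutamate carriers were lower in ectoderm as well. SLC25A12 had 1.732, 1.444 and 1.835 CPM in ectoderm against 14.89, 12.80 and 14.37 in hPSC (-3.06, SE 0.21, adjusted p 4.48e-09), and was lower, at -1.02 in endoderm (-0.01 on TPM, not called) and -0.77 in mesoderm. SLC25A13 had 44.32, 43.44 and 43.58 CPM against 80.30, 114.7 and 111.7 (-1.23, SE 0.12, adjusted p 2.1e-07), was 0.42 higher in endoderm (0.32 and not called with shared transcripts) and lower in mesoderm (-0.34, called in 4 of 6 fits without a library). SLC25A1 had 81.85, 98.50 and 96.16 CPM in ectoderm against 207.2, 203.1 and 187.8 (-1.11, SE 0.11, adjusted p 1.79e-07). In endoderm it was higher, with 269.6, 244.8 and 300.7 CPM (0.45, SE 0.10, adjusted p 0.00212), and in mesoderm it gave -0.08 (adjusted p 0.518). SLC25A10 was lower, at -1.99 in ectoderm. SLC25A39 had 94.40, 100.9 and 95.35 CPM in ectoderm against 370.9, 331.2 and 317.0 (-1.81, SE 0.10, adjusted p 6.16e-10). The ectoderm and hPSC libraries were apart for each of these. SLC25A43, a little-characterised member, was lower, at -1.62. In mesoderm SLC25A11 and SLC25A22 were lower, at -0.72 and -0.82.

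Fewer carriers were higher than in hPSC. SLC25A37 had 151.9, 137.3 and 152.1 CPM in ectoderm, 149.4, 153.3 and 136.2 in mesoderm, 17.98, 17.73 and 18.82 in endoderm, and 50.52, 43.74 and 46.32 in hPSC. The ectoderm and mesoderm libraries were above all hPSC libraries (1.65 in each, adjusted p 6.02e-10 and 1.19e-09), and the endoderm libraries were below them (-1.36, adjusted p 1.82e-08), a value that came to 0.18 on TPM. SLC25A37 has no transcript shared by the 4 tables. The endoderm table holds 4 transcripts of it, 1 listed for nonsense-mediated decay and 3 unlisted. The other tables also hold retained-intron transcripts, and a transcript listed as coding is in the hPSC table alone (1 of 5). SLC25A36 had 204.2, 138.9 and 144.9 CPM in ectoderm against 67.91, 58.11 and 55.98 in hPSC (1.43, SE 0.14, adjusted p 2.67e-07), and was 0.76 higher in mesoderm. SLC25A29 was 1.11 higher in ectoderm (adjusted p 6.98e-08), and 0.29 and not called with shared transcripts. SLC25A24 had 108.2, 107.5 and 68.01 CPM in endoderm against 32.29, 41.70 and 36.82 in hPSC (1.35, SE 0.17, adjusted p 1.14e-05), and was 0.94 higher in mesoderm. In endoderm SLC25A44, a carrier of branched-chain amino acids, was 1.13 higher, SLC25A15, the ornithine carrier, 0.90, SLC25A20, the acylcarnitine carrier, 0.80, and SLC25A23 0.51. None of the 4 tables holds a transcript of SLC25A15 listed as protein coding. The call of SLC25A20 was lost without hPSC cytoplasm replicate 2 or endoderm cytoplasm replicate 1. In mesoderm SLC25A40 and SLC25A46 were higher by 1.05 and 0.84, the latter 0.15 and not called on TPM.

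The most extreme values belonged to members whose assembled transcripts differ. SLC25A51, the NAD carrier, had 39.55, 31.89 and 38.88 CPM in ectoderm against 1.113, 1.257 and 1.572 in hPSC (4.76, SE 0.24, adjusted p 1.75e-10). The tables hold 2 transcripts of it in ectoderm, both unlisted, 3 in mesoderm, of which 1 is listed as coding, and 1 in hPSC, unlisted. SLC25A33 had 0.2193, 0.2497 and 0.3267 CPM in endoderm against 54.00, 44.68 and 44.90 in hPSC (-7.46, SE 0.20, adjusted p 1.11e-12). The endoderm table lacks the coding transcript that the other 3 tables hold, so that value is not a comparison of the same RNA. In mesoderm, with the coding transcript, SLC25A33 was lower, at -0.74, a value that came to 0.16 on TPM. SLC25A42, a coenzyme A carrier, gave 0.68 in ectoderm and -0.66 in endoderm (0.11 on TPM), and SLC25A40 gave -0.76 in endoderm (0.27 on TPM), both without a shared transcript, and the endoderm call of SLC25A42 was lost without endoderm cytoplasm replicate 1 or 2. SLC25A3 gave 0.07, 0.09 and -0.02 on the gene sums (adjusted p 0.489, 0.443 and 0.878), and the mesoderm value came to 1.02 on TPM. With shared transcripts it gave 2.77 in ectoderm and 2.46 in mesoderm, and the transcripts behind these values are given with the transcript shares below.

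In chromatin 25 of 32 members were called in ectoderm (background 62.9%), 17 of 32 in endoderm (61.9%) and 20 of 32 in mesoderm (54.6%), with 9 higher against 16 lower (30.5% and 32.4% of all genes), 7 against 10 (28.9% and 33.0%) and 5 against 15 (27.1% and 27.5%). No overlap with hPSC was seen for 29, 20 and 21 members (73.9%, 68.5% and 54.8% of all genes). On TPM the splits were 8 against 11, 2 against 10 and 10 against 7. SLC25A5 was lower than in hPSC in all 3, with 86.40, 70.47 and 85.59 CPM in ectoderm, 79.68, 82.31 and 63.54 in endoderm, 95.80, 56.85 and 146.5 in mesoderm, and 216.3, 235.1 and 201.3 in hPSC. The differences were -1.43, -1.53 and -1.13, and no library reached the lowest hPSC library. SLC25A6 was lower, at -0.69, -1.22 and -1.11 and SLC25A4 by -0.84, -1.42 and -1.04. The mesoderm value of SLC25A4 came to 0.02 on TPM, and with shared transcripts the ectoderm values of SLC25A4 and SLC25A6 were -0.44 and -0.30 and not called. In endoderm, SLC25A5 and SLC25A6 were lower than in hPSC in chromatin while their cytoplasm libraries overlapped those of hPSC. Whether these fractions differ in that was not tested.

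Other members lower in chromatin were SLC25A12 (-1.99), SLC25A39 (-1.51), SLC25A13 (-1.28) and SLC25A1 (-1.08) in ectoderm, SLC25A33 (-2.34), SLC25A26 (-1.24), SLC25A37 (-1.23), SLC25A12 (-0.74) and SLC25A13 (-0.63) in endoderm, and SLC25A33 (-1.52), SLC25A11 (-1.29), SLC25A3 (-0.70) and SLC25A1 (-0.58) in mesoderm. The endoderm call of SLC25A13 was lost without endoderm chromatin replicate 1, and the mesoderm call of SLC25A1 without mesoderm chromatin replicate 2. The mesoderm value of SLC25A3 turned to 1.73 with shared transcripts. SLC25A29 had 1371, 1276 and 1394 CPM in ectoderm chromatin against 437.0, 429.5 and 684.2 in hPSC (1.38, SE 0.30, adjusted p 0.00109; 0.53 and not called with shared transcripts). Members higher in ectoderm chromatin were also SLC25A51 (6.09), SLC25A20 (1.79), SLC25A37 (1.76) and SLC25A36 (1.31), of which SLC25A20 and SLC25A36 came to 0.55 and 0.75 and were not called with shared transcripts. In endoderm they were SLC25A20 (1.51), SLC25A43 (0.91), SLC25A36 (0.85), SLC25A24 (0.72), SLC25A29 (0.71) and SLC25A1 (0.44). The calls of SLC25A36, SLC25A24, SLC25A29 and SLC25A1 held in 2, 2, 1 and 1 of 6 fits without a library, and hPSC chromatin replicate 3, with 71.30 CPM of SLC25A36 and 14.53 of SLC25A24, stood apart from its group. In mesoderm SLC25A40 (1.55), SLC25A46 (1.37), SLC25A24 (0.91) and SLC25A37 (0.79) were higher. SLC25A24 came to 0.61 and was not called without hPSC chromatin replicate 3, and came to 0.54 without mesoderm chromatin replicate 3, the library with 5.53% mitochondrial counts against 0.769% to 1.12% in the other two.

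Whether the balance of cytoplasm and nucleus itself differed from hPSC was tested as a difference between differences, in 1 fit of the 24 cytoplasm and nucleus libraries. In ectoderm 19 of 32 members were called (background 51.9%), 5 toward cytoplasm and 14 toward nucleus (27.4% and 24.6% of all genes). In endoderm 15 of 32 were called (38.0%), 6 and 9 (19.7% and 18.3%), and in mesoderm 7 of 32 (25.6%), 7 and 0 (18.7% and 6.88%). Medians over members were -0.42, -0.14 and 0.37, beside 0.10, -0.03 and 0.16 over all genes. The endoderm split turned to 10 against 1 with total counts and 12 against 1 on TPM, the mesoderm split to 3 against 0 and 0 against 8, and the ectoderm split to 4 against 13 and 7 against 8. The 3 comparisons share the hPSC libraries. Control genes moved in this test too. RPLP0, a ribosomal protein mRNA used as a cytoplasmic control, gave -2.07 in ectoderm (adjusted p 3.87e-05), -0.66 in endoderm (adjusted p 0.11) and 1.71 in mesoderm (adjusted p 0.000814). MT-CO1, made inside mitochondria, gave 1.72, -0.95 and 7.32 (adjusted p 0.00153, 0.0688 and 1.06e-10). Their part in the members' shifts was not tested.

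In ectoderm the ADP/ATP and phosphate carriers shifted toward nucleus relative to hPSC, SLC25A6 at -1.76 (SE 0.29, adjusted p 5.48e-05), SLC25A5 at -1.44 (SE 0.24, adjusted p 6.58e-05), SLC25A3 at -1.13 (adjusted p 0.000188) and SLC25A4 at -0.65 (adjusted p 0.00233). SLC25A1 shifted the same way (-1.08). The directions of these 5 were kept with total counts, on TPM and with shared transcripts, and the call of SLC25A4 was lost on TPM. All 4 phosphate, citrate and dicarboxylate carriers tested were called toward nucleus, as were 24.6% of all genes. SLC25A37 (1.48, SE 0.19, adjusted p 3.31e-06), SLC25A36 (1.91, SE 0.47, adjusted p 0.00204), SLC25A29 (1.03, SE 0.19, adjusted p 0.000154) and SLC25A40 (0.93, SE 0.27, adjusted p 0.00713) shifted toward cytoplasm. SLC25A37 and SLC25A40 have no transcript shared by the 4 tables, so their values, here and below, compare different transcripts. In endoderm SLC25A24 (1.62) and SLC25A32 (1.40, not called with shared transcripts) shifted toward cytoplasm and SLC25A29 toward nucleus (-0.92), the last not called with total counts (-0.43). In mesoderm SLC25A6 (1.29, SE 0.29, adjusted p 0.00294), SLC25A3 (0.82), SLC25A23 (1.37) and SLC25A37 (1.01) shifted toward cytoplasm, and on TPM none of these 4 was called, with SLC25A3 and SLC25A37 at -0.01 and -0.01. SLC25A13, the more abundant aspartate/glutamate carrier, was at -0.50 in ectoderm and 0.58 in endoderm, called in 3 and 5 of 12 fits without a library, and SLC25A1 at -0.65 in endoderm, called in 8 of 12. SLC25A12 was called in none of the 3 cell types (0.22, 0.44 and -0.67). SLC25A28, which the mesoderm table does not list, was not in these fits.

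The assembled transcripts of the members also differed between fractions. In the own-assembly tables, members had 85 (hPSC), 123 (ectoderm), 75 (endoderm) and 93 (mesoderm) transcripts. In the same order, 9, 9, 11 and 5 members had no transcript listed as protein coding. Gene sums of those members rest on unlisted transcripts or on other listed classes. Transcripts listed in GENCODE release 29 as retained introns took 0.847% of member counts in hPSC cytoplasm and 2.64% in chromatin, as group means. The shares were 2.57% and 6.54% in ectoderm, 0.0997% and 4.13% in endoderm, and 1.21% and 8.97% in mesoderm. In nucleus the members' shares were 3.07% (hPSC), 2.21% (ectoderm), 1.69% (endoderm) and 5.61% (mesoderm), so that ectoderm nucleus was not above ectoderm cytoplasm. Over all genes the cytoplasm and chromatin shares were 0.488% and 1.13%, 0.890% and 2.71%, 0.316% and 2.39%, and 0.609% and 2.27%. Unlisted transcripts took 3.32% and 5.4% of member counts in hPSC cytoplasm and chromatin. These were 13.1% and 35% in ectoderm, 2.36% and 5.73% in endoderm, and 6.09% and 19.9% in mesoderm. Over all genes they were 10.8% and 18.1%, 15.1% and 30.9%, 14.1% and 31.4%, and 12.7% and 25.6%. Unlisted transcripts have no class, so the retained-intron shares are not fully comparable between fractions or cell types. How reads were divided among transcripts of a gene is an estimate of the authors' counting tool, so shares of single transcripts are less certain than gene sums.

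SLC25A3 and SLC25A39, both among the members with the highest levels, are given by library. They were chosen for this after their values were seen. In endoderm a retained-intron transcript of SLC25A3 (ENST00000546766) took 39.2%, 48.5% and 43.3% of the gene's counts in the 3 chromatin libraries, and 0.552%, 0.690% and 0.581% in cytoplasm. In ectoderm it took 24.5%, 28.1% and 21.3% in chromatin and 2.31%, 2.20% and 2.66% in cytoplasm. Chromatin and cytoplasm were apart in both, with nucleoplasm between them at 10.0% to 15.9% in endoderm and 9.64% to 11.1% in ectoderm. The nucleus libraries had 6.19%, 13.5% and 17.3% in endoderm, but 3.04%, 0.817% and 2.97% in ectoderm, where they overlapped cytoplasm. The hPSC and mesoderm tables do not list this transcript. In mesoderm a retained-intron transcript of SLC25A39 (ENST00000591006) took 60.8%, 66.4% and 53.2% of the gene's counts in chromatin, 52.3%, 45.8% and 37.8% in nucleus, 19.0% in the nucleoplasm library and 5.83%, 5.58% and 4.10% in cytoplasm. The cytoplasm libraries were the lowest and did not overlap the chromatin libraries.

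**Figure D5:**
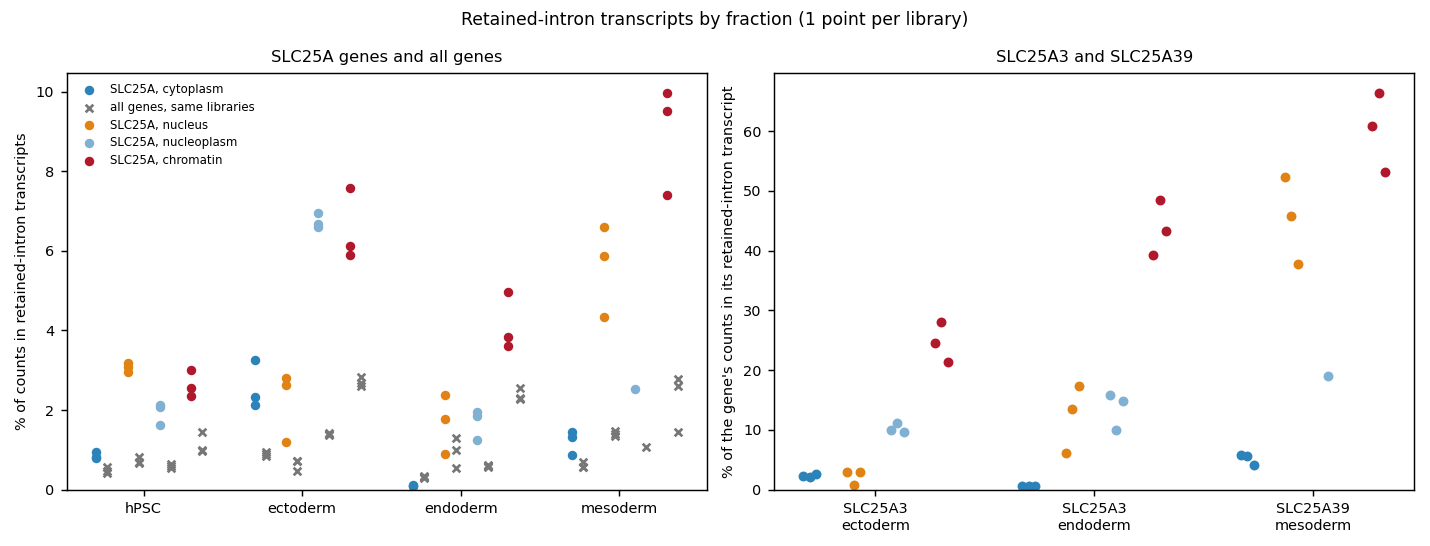
Left, percent of member counts (coloured points) and of all counts (grey crosses) in retained-intron transcripts, and right, percent of a gene's counts in its retained-intron transcript, by cell type and fraction (1 point per library). On the right, chromatin lay above cytoplasm in each case, up to 48.5% for SLC25A3 in endoderm and 66.4% for SLC25A39 in mesoderm.

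The splice sites of these introns are printed because the transcripts differ by whether they are cut there. They are from the GENCODE release 29 transcripts (GRCh38), with 10 exon and 20 intron bases at each site, and capitals mark the first and last 2 bases of the intron. The SLC25A3 intron is chr12:98594136-98595726 on the plus strand, 1591 bases, spliced out by 6 coding transcripts. The SLC25A39 intron is chr17:44321232-44321433 on the minus strand, 202 bases, also spliced out by 6 coding transcripts. Both lie between coding exons.
SLC25A3 donor: gccgtggaagGTgagatcagaccctgccca
SLC25A3 acceptor: tgtgtcttctcttactacAGagtacagttg
SLC25A39 donor: ctggcccgccGTgagcatagtcttgggcct
SLC25A39 acceptor: cacccccaatccccacacAGtgggcaccgt
Each intron begins with GT and ends with AG, the usual splice site bases.

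SLC25A3 also has alternative exons that are spliced one for the other and give heart and muscle or general forms of the carrier. In GENCODE the alternatives are chr12:98595433-98595557 (125 bases, in 4 coding transcripts) and chr12:98595727-98595848 (122 bases, in 6). Among transcripts listed as coding, ones with the 122-base exon were in all 4 tables, and ones with the 125-base exon in 0. Unlisted transcripts were not searched for these exons. The first of these alternatives lies inside the intron given above, so the retained-intron transcript in the ectoderm and endoderm tables holds its bases. ENST00000188376 and ENST00000552981 share the same 7 coding exons, so a change between them does not change the protein. In cytoplasm their means were 482 and 107 CPM in hPSC, 540 and 134 in endoderm and 14.1 and 551 in mesoderm, and ectoderm listed ENST00000552981 alone, at 619 CPM. The ectoderm and mesoderm differences of SLC25A3 with shared transcripts thus compare this 1 transcript with hPSC, where most counts went to the other. SLC25A29 was divided among several coding transcripts. In endoderm ENST00000359232 had 344 CPM in chromatin and 76.4 in cytoplasm, and ENST00000554912 had 337 and 50.6.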

How the data were processed

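RNA from 46 libraries was sequenced on the Illumina NovaSeq platform after NEBNext Ultra preparation, per the labels' protocols. The authors deposited, for each cell type, tables of whole-number read counts and of TPM per assembled transcript. The submitters' processing notes name STAR, RSEM and hg38, with no versions given in the sources used here. How the tables' transcripts were assembled is not given in the sources used here. Column codes name cell type, fraction and replicate; the code "Nei" was read as nucleus because the other 3 fractions have their own codes. The single mesoderm nucleoplasm column carries the number 3 and its label the number 1. It was matched by cell type and fraction and enters no comparison. 2 columns that match no sample were not used.

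Counts were summed over the transcripts of each Ensembl gene. Transcripts without one, 0.278% to 9.6% of counts in a library, were left out. A gene listed at both the X and Y copy was summed. In 45 replicate pairs 0 were identical, and the lowest chi-square per degree of freedom was 4.06, so all libraries were kept. Each cell type's fractions were fitted together in edgeR 4.0.16 (R 4.3.3), with TMM scaling, filterByExpr at a minimum count of 10, and the quasi-likelihood test. Fits between cell types used 1 fraction and the 10701 genes in all 4 tables, and the difference of differences used the 24 cytoplasm and nucleus libraries. p-values were adjusted over all genes tested (Benjamini-Hochberg), with a threshold of 0.05. The fits were tested on simulated data. Scaled CPM are counts divided by the TMM library sizes of that fit, so a library's value differs between fits. Levels between genes are the authors' deposited TPM, summed per gene.

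Named members were, in each comparison, up to 5 in each direction with the largest called changes, a mean of at least 10 CPM in a group and no overlap between libraries (overlap was allowed for the difference of differences), plus SLC25A1, SLC25A3, SLC25A4, SLC25A5, SLC25A6, SLC25A12, SLC25A13, SLC25A28, SLC25A31 and SLC25A37. A few others are named among counts or as paralogs. 1 member enters the counts but is not reported here, also in the figures. The members, lists and rule were chosen with earlier results of these data known.

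Alternatives were DESeq2 1.42.0 and its size factors, total counts, no filter, limma 3.58.1 on log2 of TPM plus 1, a replicate block, the authors' combined assembly for ectoderm, leaving out each library, and, chosen after seeing the data, transcripts shared by all 4 tables and 1 copy of SLC25A6. Promoter windows are from RefSeq (GRCh38.p14), and gene positions, transcript classes and splice sites from GENCODE release 29 (GRCh38), matched by Ensembl identifier or symbol. Protein sequences and a genome were not used here. Library totals limit the precision, and shares of transcripts within a gene rest on how the authors' tool assigned reads.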

Additional observations from a re-analysis of the deposited data

Results flagged for a closer look

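These members are given because the difference between cytoplasm and nucleus in a cell type differed from that in hPSC by the test of the difference itself (edgeR's quasi-likelihood test, Benjamini-Hochberg adjusted over all genes, 3 libraries per group). Values are log2 differences of differences, positive toward cytoplasm. Of the members called, up to 5 in each direction and cell type are named.

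In ectoderm SLC25A36 (1.91, SE 0.47, adjusted p 0.00204), SLC25A37 (1.48, SE 0.19, adjusted p 3.31e-06), SLC25A29 (1.03, SE 0.19, adjusted p 0.000154), SLC25A40 (0.93, SE 0.27, adjusted p 0.00713) and SLC25A32 (0.71, SE 0.27, adjusted p 0.0305) shifted toward cytoplasm. SLC25A32 kept its call in 6 of 12 fits with 1 library removed. SLC25A37 and SLC25A40, and SLC25A33 named next, have no transcript shared by the 4 tables. SLC25A6 (-1.76), SLC25A5 (-1.44), SLC25A38 (-1.36), SLC25A26 (-1.35) and SLC25A33 (-1.33) shifted toward nucleus, with adjusted p from 3.3e-06 to 7.28e-05.

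In endoderm SLC25A24 (1.62, adjusted p 0.00323), SLC25A32 (1.40, adjusted p 0.000674), SLC25A36 (1.22, adjusted p 0.0484), SLC25A40 (1.20, adjusted p 0.00402) and SLC25A46 (1.20, adjusted p 0.0356) shifted toward cytoplasm, with SLC25A36 called in 3 of 12 and SLC25A46 in 6 of 12 fits without a library. SLC25A33 (-4.58, adjusted p 3.76e-08), SLC25A29 (-0.92, adjusted p 0.000908), SLC25A22 (-0.76, adjusted p 0.00504), SLC25A25 (-0.75, adjusted p 0.00585) and SLC25A39 (-0.68, adjusted p 0.0071) shifted toward nucleus. The last 4 were not called with total counts or on TPM. The value of SLC25A33 compares different transcripts, since the endoderm table lacks the coding one. SLC25A40 also has no transcript shared by all cell types' tables.

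In mesoderm SLC25A23 (1.37, adjusted p 0.000775), SLC25A6 (1.29, adjusted p 0.00294), SLC25A37 (1.01, adjusted p 0.000621), SLC25A33 (0.97, adjusted p 0.005) and SLC25A3 (0.82, adjusted p 0.0071) shifted toward cytoplasm. On TPM none of these 5 was called, and SLC25A3 and SLC25A37 came to -0.01 and -0.01. With total counts SLC25A37 (0.68) and SLC25A33 (0.63) were not called. Neither of these has a transcript shared by all cell types' tables. The control RPLP0 gave 1.71 in the same test, and -2.07 in ectoderm.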

How the results depend on the processing

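Over the alternatives of the named members, 2873 of 3140 values kept their side of the threshold without turning as a call (56 of them, called in neither fit, changed sign), 199 kept the direction and lost the call, 32 gained a call and 36 turned. With DESeq2 these were 227 of 229, with 2 such sign changes. The authors' combined assembly, tried in ectoderm, kept 29 of 29. The causes of the changes below were not tested, beyond the fewer members (26) tested with shared transcripts.

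On TPM, members called came to 10 for cytoplasm against nucleus in ectoderm, to 24, 20 and 25 for chromatin against nucleoplasm in hPSC, ectoderm and endoderm, and to 10 and 13 for endoderm and mesoderm cytoplasm against hPSC. With total counts they came to 15 and 26 for chromatin against nucleoplasm in ectoderm and endoderm, and to 3 for the difference of differences in mesoderm. With shared transcripts they came to 11 in endoderm cytoplasm, 10 in ectoderm chromatin and 10 in mesoderm chromatin, and to 10, 8 and 4 for the differences of differences in ectoderm, endoderm and mesoderm.

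Values turned as follows. In cytoplasm against nucleus, SLC25A1 in endoderm came to 0.76 with total counts, 0.35 on TPM and to between -0.18 and 0.32 with 1 library left out (0.32 without endoderm nucleus replicate 1), SLC25A25 in endoderm to 0.01 with total counts, and SLC25A13 and SLC25A37 in mesoderm to -0.83 and -0.92 on TPM. In chromatin against nucleoplasm on TPM, hPSC values came to 0.42 for SLC25A12, 0.46 for SLC25A6, 0.43 for SLC25A4, 0.42 for SLC25A3 and 0.11 for SLC25A5, ectoderm values to 0.20 for SLC25A1 and 0.13 for SLC25A6, and endoderm values to 0.10 for SLC25A4, 0.04 for SLC25A13 and 0.01 for SLC25A26. With total counts, SLC25A3, SLC25A4 and SLC25A13 in endoderm came to 0.42, 0.09 and 0.02. Against hPSC on TPM, endoderm cytoplasm came to 0.11 for SLC25A42, 0.27 for SLC25A40 and 0.18 for SLC25A37, mesoderm cytoplasm to 1.02 for SLC25A3, 0.47 for SLC25A4 and 0.16 for SLC25A33, and mesoderm chromatin to 0.35 for SLC25A3 and 0.02 for SLC25A4. With shared transcripts SLC25A3 came to 2.46 in mesoderm cytoplasm and 1.73 in chromatin. Of the differences of differences, SLC25A13 in ectoderm came to 0.07 on TPM, in endoderm SLC25A3 to 0.42 with total counts and 0.56 on TPM, SLC25A5 to 0.52 and SLC25A1 to 0.04 on TPM, and in mesoderm SLC25A37 and SLC25A3 to -0.01 and -0.01 on TPM.

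Leaving out 1 library, members called ranged from 17 to 21 in hPSC, 13 to 24 in ectoderm, 22 to 29 in endoderm and 19 to 22 in mesoderm for cytoplasm against nucleus, and from 6 to 12, 7 to 10 and 12 to 15 for chromatin against nucleoplasm. They ranged from 24 to 26, 14 to 19 and 19 to 23 in cytoplasm against hPSC, from 23 to 25, 12 to 15 and 17 to 22 in chromatin, and from 15 to 21, 10 to 16 and 5 to 9 for the differences of differences. The count of 13 came without ectoderm cytoplasm replicate 1, and counts of 6, 7 and 7 in hPSC chromatin against nucleoplasm without nucleoplasm replicates 1, 2 and 3.

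Same-numbered libraries correlated from -0.39 to 0.42, both extremes being from comparisons between cell types. For cytoplasm against nucleus the range was -0.38 to 0.22. With 3 libraries per group, these values cannot decide whether the numbers pair the fractions. With a replicate block, 226 of 229 values kept their side of the threshold, and SLC25A24 and SLC25A29 in endoderm chromatin (0.72 and 0.71) and SLC25A13 in the ectoderm difference of differences (-0.47) were not called. Members called with the block were 21, 21, 25 and 24 for cytoplasm against nucleus, 12, 10 and 15 for chromatin against nucleoplasm, 27, 18 and 21 for cytoplasm against hPSC, 25, 16 and 21 for chromatin against hPSC, and 18, 14 and 6 for the differences of differences.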
